A study of Mus musculus with 8 samples.

Results

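The genes described here are 8 genes of major histocompatibility complex (MHC) class I antigen presentation: the heavy chains H2-K1, H2-D1 and H2-T23, the light chain B2m, the peptide transporter subunits Tap1 and Tap2, the loading factor Tapbp, and the transcriptional regulator Nlrc5. They were chosen by gene name from the 46635 genes of a bulk RNA-seq table, in which all 8 were found, and 7 of them passed the filter on low values, as did 14044 genes in all. The study measured small intestinal mesenchyme, the tissue left after the intestine is opened and shaken in EDTA to take off the epithelium, from wild-type mice late in gestation (embryonic day E17.5, 4 libraries) and in the suckling period (postnatal day P14, 4 libraries). Its stated question is whether alternative splicing takes part in lengthening of the gut, so class I presentation was not its subject. No group carries a transgene, deletion or treatment, and the labels name neither the strain nor whether a replicate was 1 animal or a pool. P-values therefore measure only the spread between these libraries, which may be technical.

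Class I molecules display short peptides from a cell's own proteins to CD8 T cells and natural killer cells. The proteasome makes the peptides, the Tap1-Tap2 transporter moves them into the endoplasmic reticulum, tapasin (the product of Tapbp) holds an empty class I molecule beside the transporter, and a heavy chain reaches the cell surface only when it is paired with beta-2-microglobulin, the product of B2m. H2-K1 and H2-D1 encode classical heavy chains, H2-T23 encodes the non-classical Qa-1 heavy chain, which presents a leader peptide of other class I molecules to an inhibitory receptor of natural killer cells, and Nlrc5 is a transactivator of class I genes. In the intestine, epithelial cells and leukocytes are known to be rich in class I molecules.

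Of the 8 genes, 6 had a promoter in the RefSeq table (GRCm38.p6, not the build of the expression table), all but Tap2 and Nlrc5. The windows of the 3 heavy chains and of B2m are shown because these genes encode the parts of the class I molecule and differed in how they varied among libraries. Each line runs 5′ to 3′ on the gene's own strand and ends 1 base before the RefSeq start site. Capitals mark matches, on either strand, to 5 motifs: the kappa B site of the class I enhancer (GGGATTCCC), an interferon response element in either of its arrangements (GAAANNGAA or GAANNGAAA), the core of a cyclic AMP response element (TGACG) and the CCAAT box (CCAAT), with GAANNGAAA added after the sequences had been read.
H2-K1 (chr17:34000334-34000513, minus strand, the second of its pair of listed start sites): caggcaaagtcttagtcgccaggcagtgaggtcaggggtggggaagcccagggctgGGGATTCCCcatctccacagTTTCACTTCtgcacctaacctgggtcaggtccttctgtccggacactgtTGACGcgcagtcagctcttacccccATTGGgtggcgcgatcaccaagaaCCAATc
H2-D1 (chr17:35262914-35263093, plus strand): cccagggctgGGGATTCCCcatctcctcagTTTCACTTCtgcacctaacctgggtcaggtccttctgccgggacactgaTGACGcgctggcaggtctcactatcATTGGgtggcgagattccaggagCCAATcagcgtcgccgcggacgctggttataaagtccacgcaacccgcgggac
H2-T23 (chr17:36032702-36032881, minus strand): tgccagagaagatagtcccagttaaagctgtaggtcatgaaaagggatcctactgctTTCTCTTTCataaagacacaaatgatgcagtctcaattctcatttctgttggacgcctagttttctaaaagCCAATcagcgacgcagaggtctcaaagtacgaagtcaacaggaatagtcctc
B2m (chr2:122147507-122147686, plus strand): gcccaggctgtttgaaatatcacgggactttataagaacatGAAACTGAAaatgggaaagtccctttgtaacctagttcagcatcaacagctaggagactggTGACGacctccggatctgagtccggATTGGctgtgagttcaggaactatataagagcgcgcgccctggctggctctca

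The H2-K1 and H2-D1 windows held the same series of matches: GGGATTCCC, then TTTCACTTC starting 20 bases on, TGACG 69 bases on and ATTGG 94 bases on, with the same spacing in both. The series began 124 bases before the H2-K1 start site and 170 bases before that of H2-D1. A CCAAT followed it in both, 6 and 53 bases before the start site, and its spacing from the series was not the same. In B2m the matches were GAAACTGAA, TGACG and ATTGG, starting 139, 78 and 53 bases before the start site. The H2-T23 window held TTCTCTTTC and CCAAT, 123 and 52 bases before its start site. GGGATTCCC was rare, present in 0.353% of 32851 RefSeq promoters of 300 bases, whereas GAAANNGAA was in 8.56%, GAANNGAAA in 7.52%, TGACG in 20.8% and CCAAT in 37.4%. Outside the printed windows, Tap1 held TGACG 86 bases and CCAAT 222 bases before its start site, and Tapbp held ATTGG at 248 and 165 bases. These matches are descriptions of the sequence only.

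The E17.5 libraries held 16660998 to 19496632 assigned reads and the P14 libraries 17702122 to 18474346. Of the mesenchymal markers, those of smooth muscle summed to 5016 to 5498 FPKM at E17.5 and 2931 to 11261 FPKM at P14, and those of fibroblasts to 2324 to 2579 and 945 to 2634. Epithelium was not absent at P14, and in P14 replicate 1 its markers summed to more than those of smooth muscle or of fibroblasts. The summed level of 15 epithelial markers was 39.2 to 61.1 FPKM at E17.5, and at P14 replicates 1 to 4 had 6302, 155, 864 and 307 FPKM. Epcam, which marks epithelium, stood at 0.683 to 1.73 FPKM at E17.5 and at 1228, 8.46, 118 and 33.5 FPKM in P14 replicates 1 to 4. P14 replicate 1 also had the lowest smooth muscle and fibroblast sums of the 8 libraries, so the change of each of the 8 genes is given with and without it, as are most named changes of other genes. In bulk tissue, fewer cells of a type and less RNA per cell cannot be told apart.

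At E17.5 the 8 genes kept a steep order of levels in FPKM, reads scaled for gene length and library size. B2m was the most abundant at 285 ± 54.9 (SD, n = 4), followed by H2-D1 at 83.3 ± 14.8, Tapbp at 32.7 ± 2.61, H2-K1 at 23.7 ± 2.75, Tap2 at 11.2 ± 1.84, Tap1 at 8.57 ± 0.760, H2-T23 at 7.64 ± 4.76 and Nlrc5 at 0.171 ± 0.060. In each of the 4 libraries every one of these genes was above the next, except that Tap1 was above H2-T23 in 2 libraries. At P14 the order was less settled: H2-D1 passed B2m in P14 replicates 1 and 3 and stayed below it in the other two, and H2-K1 was above Tapbp in P14 replicates 1 and 4 and below it in replicates 2 and 3.

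**Figure D1:**
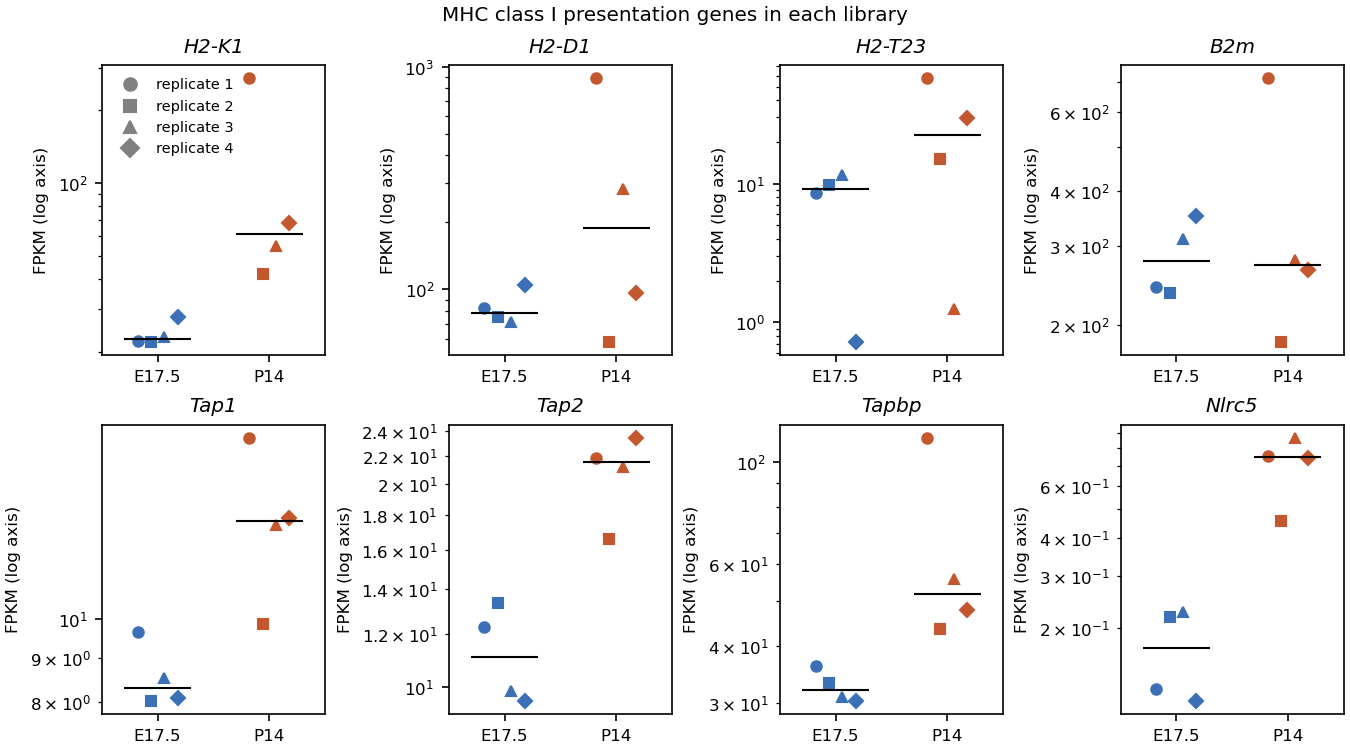
FPKM (log axis, a scale of its own in each panel) of the 8 class I presentation genes in each E17.5 (blue) and P14 (orange) library, with the replicate number as the symbol and the group median as a line. The ages are apart, with every P14 library higher, for H2-K1, Tap1, Tap2, Tapbp and Nlrc5, and overlap for H2-D1, H2-T23 and B2m.

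Among the 7 genes tested, 3 rose from E17.5 to P14 at an adjusted p under 0.05 (Tap2, H2-K1 and Tap1) and none fell, where 9.72% of all tested genes rose and 15.0% fell. The median log2 fold change of the 7 was 0.87, beside 0.00 over all tested genes. Without P14 replicate 1, 4 rose (Tapbp in addition) and none fell, beside 22.6% of all tested genes that rose and 26.9% that fell. The ages were apart, with all 4 P14 libraries above all 4 E17.5 libraries, for 4 of the 7 (H2-K1, Tap1, Tap2 and Tapbp), against 15.6% of all tested genes, and the same 4 genes were above with P14 replicates 2 to 4 alone, against 24.8%. P14 replicate 1 was more than 2 times the highest other P14 value for H2-K1, H2-D1, B2m and Tapbp, as it was for 13.1% of all tested genes.

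Among the heavy chains, H2-K1 (gene 14972, GRCm39 chr17:34214986-34219321, minus strand) rose with age. Its FPKM was 22.12, 21.98, 23.03 and 27.80 in E17.5 replicates 1 to 4 and 270.95, 41.95, 54.85 and 67.97 in P14 replicates 1 to 4. The E17.5 libraries lay close together, every P14 library was above them, and P14 replicate 1 stood 4.93 times above the mean of the other three. The log2 fold change was 1.73 ± 0.522 (SE), with an adjusted p of 0.0449. Without P14 replicate 1 it was 1.16 ± 0.157 with an adjusted p of 0.0006, the smaller change having the smaller error. With P14 replicate 1 kept, the call was lost on leaving out any 1 of the E17.5 libraries, P14 replicate 3 or P14 replicate 4, the highest adjusted p being 0.1067.

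H2-D1 (gene 14964, chr17:35482070-35486473, plus strand), the other classical heavy chain, behaved differently among the P14 libraries. It measured 82.3, 75.1, 71.4 and 104 FPKM in the E17.5 libraries, replicates 1 to 4, and 884, 58.2, 282 and 95.9 FPKM in P14 replicates 1 to 4. P14 replicates 1 and 3 were far above the E17.5 range, replicate 4 was within it, and replicate 2 was below it. The log2 fold change of 1.22 ± 0.760 did not pass the test (adjusted p = 0.2665), nor did the value of 0.50 ± 0.508 without P14 replicate 1 (adjusted p = 0.452). The order of the P14 libraries for H2-D1, replicate 1 above 3 above 4 above 2, was that of the epithelial marker sum, an order that B2m and Tapbp shared. For H2-K1 and Tap1 it was replicate 1 above 4 above 3 above 2, the order of the summed leukocyte markers. These were 230, 61.5, 160 and 218 FPKM in P14 replicates 1 to 4 and 144 to 180 FPKM at E17.5. In reads, H2-K1 kept this order, whereas Tap1 had 672, 530, 711 and 740 in P14 replicates 1 to 4. The leukocyte sum itself was not taken in reads. Ptprc, a marker within that sum, had 1153, 233, 1156 and 1592 reads in P14 replicates 1 to 4, with replicate 4 highest. The match of H2-K1 to the leukocyte order therefore holds for FPKM only. T and natural killer markers and B and plasma cell markers summed highest in P14 replicate 4, and macrophage and dendritic markers in replicate 3. The part of these markers in the results was not tested, and the share of all tested genes in either order is not given here.

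The balance of the classical heavy chains was steady at E17.5 and not at P14. The ratio of H2-D1 to H2-K1 in FPKM was 3.72, 3.42, 3.10 and 3.75 in E17.5 replicates 1 to 4 and 3.26, 1.39, 5.14 and 1.41 in P14 replicates 1 to 4. P14 replicates 2 and 4 lay below, and replicate 3 above, the E17.5 range. E17.5 replicate 4 and P14 replicate 3, with the highest ratio of their age, also stood out for other MHC genes, as given below. The part of read sharing between heavy chains, or of differences in alleles, in these ratios was not tested. The mean log2 ratio differed by -0.51 at P14, and by -0.66 without P14 replicate 1, which the exact permutation test did not separate from the spread (two-sided, adjusted p = 0.429 in each case over 3 ratios picked with their values in view).

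H2-T23 (gene 15040, chr17:36340869-36343593, minus strand) had 1 very low library at each age. Its FPKM was 8.59, 9.79, 11.5 and 0.724 in E17.5 replicates 1 to 4 and 57.2, 14.9, 1.26 and 29.7 in P14 replicates 1 to 4. These low values stand for 19 reads in E17.5 replicate 4 and 31 in P14 replicate 3, where the other libraries held 217 to 1057. The remaining 3 P14 libraries were all above the remaining 3 E17.5 libraries, and with all libraries the log2 fold change of 1.21 ± 1.051 did not pass the test (adjusted p = 0.4247). It was 0.59 without P14 replicate 1 (adjusted p = 0.681), 0.55 without E17.5 replicate 4 (adjusted p = 0.7451) and 2.15 without P14 replicate 3 (adjusted p = 0.1034). H2-D1 and H2-K1 were not low in those libraries: H2-T23 stood at 0.0261 and 0.0229 of the H2-K1 level there and at 0.211 to 0.497 of it in the other 6.

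The neighbouring non-classical heavy chain gene H2-T22 showed the same pattern, with 6.35, 6.38, 5.69 and 0.571 FPKM in the E17.5 libraries, replicates 1 to 4, and 10.305, 11.7, 0.745 and 13.5 FPKM in P14 replicates 1 to 4. H2-T23 and H2-T22 were the only 2 of 14044 tested genes that lay at least 4-fold below every other library of their age, on log2(FPKM + 1), in both E17.5 replicate 4 and P14 replicate 3, and no gene lay that far above. At 2-fold there were 3 such genes, all on chromosome 17, where 4.84% of tested genes lie. The one added was the class II gene H2-Eb1, at 2.50 and 3.29 FPKM in those libraries and 15.8 to 42.0 in the other 6. H2-T10, another non-classical heavy chain, had its highest values of each age there, 3.62 and 4.62 FPKM, against 1.06 to 2.66 elsewhere. This comparison was chosen after the H2-T23 values were seen and has no test. Of all 50-base stretches of the H2-T23 transcript, 28.8% also occur in transcripts of other genes, as do 14.3% for H2-D1, 8.79% for H2-K1 and none for B2m, so reads of the heavy chains may have been split or dropped in counting. Class I genes differ in sequence between mouse strains, and how the alleles of these animals matched the reference was not tested.

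**Figure D2:**
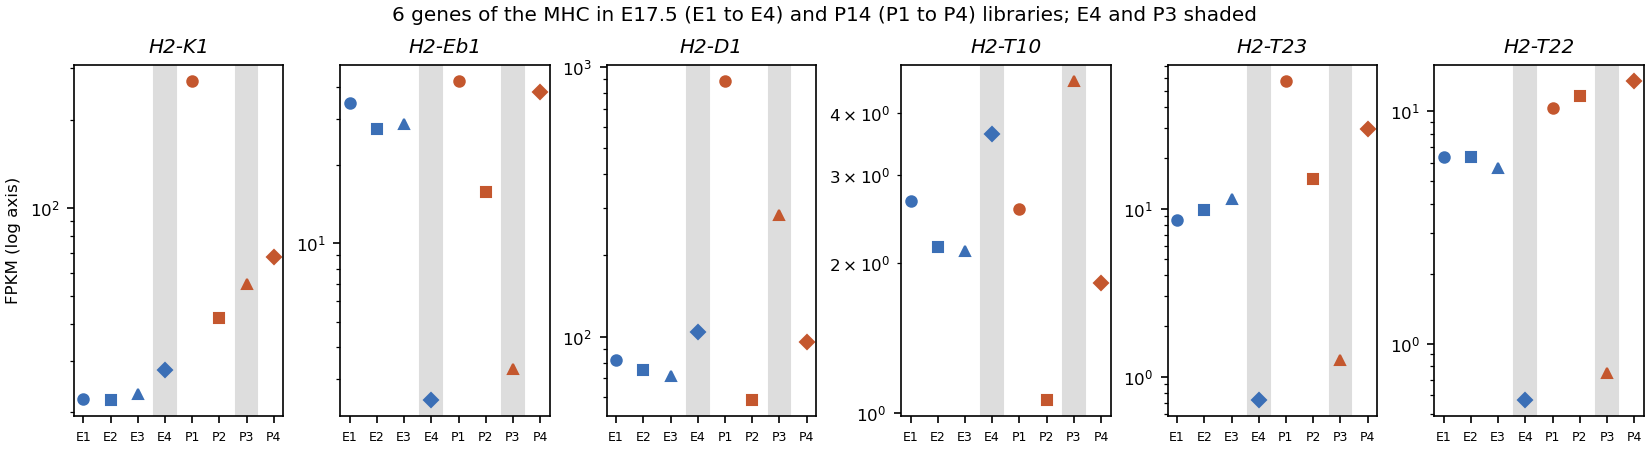
FPKM (log axis, a scale of its own in each panel) of 6 genes of the mouse MHC in the E17.5 libraries (blue, E1 to E4) and the P14 libraries (orange, P1 to P4), with E17.5 replicate 4 and P14 replicate 3 shaded. H2-T23, H2-T22 and H2-Eb1 are lowest of their age in the shaded libraries, whereas H2-T10 is highest there and H2-K1 is not low.

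B2m (gene 12010, chr2:121978168-121983563, plus strand), the light chain shared by all class I molecules, did not pass the test. It measured 244, 236, 311 and 350 FPKM in the E17.5 libraries, replicates 1 to 4, and 715, 183, 279 and 265 FPKM in P14 replicates 1 to 4. P14 replicate 1 was 2.95 times the mean of the other three, which lay within or below the E17.5 range, and the P14 order was that of the epithelial marker sum. The log2 fold change was 0.16 ± 0.386 (adjusted p = 0.788) and took the other sign without P14 replicate 1, -0.24 ± 0.189 (adjusted p = 0.327), and with FPKM rescaled to a fixed sum per library, -0.04. That rescaling lowered the median log2 fold change of all genes to -0.18.

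With B2m so placed, the summed FPKM of the 3 heavy chains, taken relative to it, was higher in every P14 library than in any E17.5 library. Heavy chains amounted to 0.464, 0.453, 0.340 and 0.379 of B2m in E17.5 replicates 1 to 4 and to 1.70, 0.628, 1.21 and 0.730 in P14 replicates 1 to 4, without overlap. Of the single chains, H2-K1 was also apart, whereas H2-D1 and H2-T23 overlapped. The log2 ratio of H2-D1 to B2m was -1.64 in P14 replicate 2, within the E17.5 range of -2.11 to -1.55. The share of all tested genes whose ratio to B2m was apart is not given here. Each other gene was also set against B2m in the same library by an exact two-sided permutation test over the 70 assignments of libraries to ages, whose smallest p is 0.0286. H2-K1 was higher relative to B2m by 1.58 and Tapbp by 0.71 on the log2 scale, each with the smallest p and an adjusted p of 0.10 over 7 pairs. H2-D1 was higher by 1.07 (exact permutation, adjusted p = 0.133), and the other 4 differences lay between 0.38 and 1.06 with adjusted p from 0.35 to 0.40. None of the 7 passed after adjustment. When P14 replicate 1 was left out, the differences ran from 0.66 for Tap1 to 1.39 for H2-K1, and none passed (exact permutation, adjusted p from 0.0667 to 0.514); that of Tap2 was then 1.04, against 0.67 with all libraries, that of Tap1 0.66 against 0.38, and that of Nlrc5 0.76 against 0.38.

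**Figure D3:**
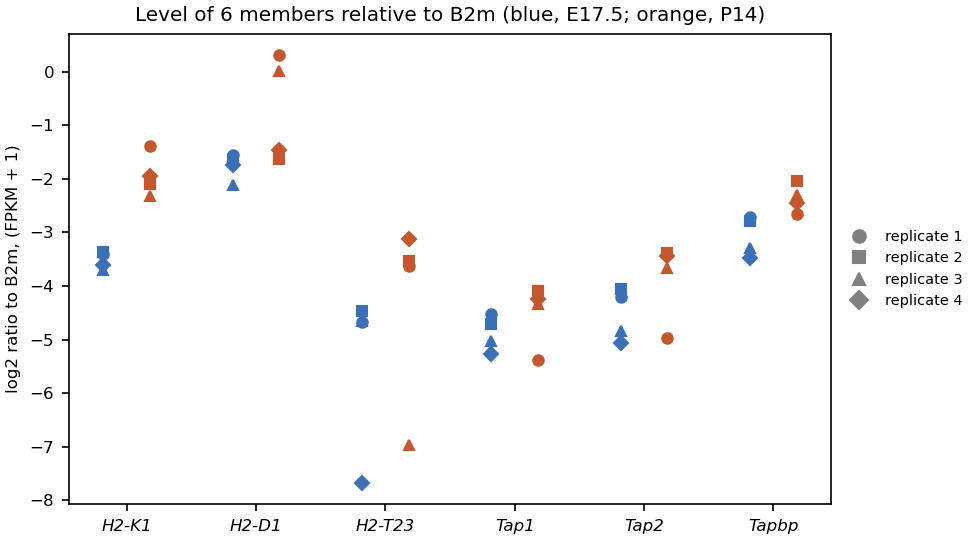
Log2 ratio of 6 class I presentation genes to B2m, from FPKM + 1, in each E17.5 (blue) and P14 (orange) library, with the replicate number as the symbol. The ages do not overlap for H2-K1 and Tapbp, and P14 replicate 1 is the lowest P14 library for Tap1, Tap2 and Tapbp.

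Both subunits of the peptide transporter rose. Tap2 (gene 21355, chr17:34423453-34435295, plus strand) measured 12.3, 13.3, 9.87 and 9.54 FPKM in the E17.5 libraries, replicates 1 to 4, and 21.9, 16.6, 21.2 and 23.4 FPKM in P14 replicates 1 to 4. P14 replicate 1 was within the range of the other P14 libraries, 1.07 times their mean. The log2 fold change was 0.83 ± 0.149 (adjusted p = 0.0071) with all libraries and 0.80 ± 0.147 (adjusted p = 0.0025) without P14 replicate 1, and the call was kept on leaving out each of the 8 libraries in turn. The call was lost on leaving out E17.5 replicate 4 and P14 replicate 3 together (0.75, adjusted p = 0.0739), when 828 of all genes were called against 3473 with all libraries. With P14 replicate 1 left out as well, the value was 0.70 (adjusted p = 0.0210).

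Tap1 (gene 21354, chr17:34406530-34416199, plus strand) measured 9.66, 8.02, 8.53 and 8.08 FPKM in the E17.5 libraries, replicates 1 to 4, and 16.2, 9.85, 12.9 and 13.1 FPKM in P14 replicates 1 to 4. P14 replicate 2 was just above the highest E17.5 library. The log2 fold change was 0.53 ± 0.148 (adjusted p = 0.0339), and 0.43 ± 0.113 (adjusted p = 0.0135) without P14 replicate 1. The call was lost on leaving out any 1 of the E17.5 libraries, P14 replicate 3 or P14 replicate 4 (highest adjusted p 0.0903), and with FPKM rescaled to a fixed sum (adjusted p = 0.0699).

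Each transporter gene has an immunoproteasome subunit gene beside it. Tap1 and Psmb9 are transcribed away from each other, with RefSeq start sites 226 bases apart (GRCm38.p6), and 3024 bases lie between Tap2 and Psmb8 (GRCm39). The ratio of Tap2 to Psmb8 in FPKM was 0.582 to 0.683 at E17.5 and 0.794 to 0.952 at P14, without overlap, a difference of 0.47 on the log2 scale with the smallest exact p of 0.0286 and an adjusted p of 0.0857 over the 3 ratios. It was 0.52 without P14 replicate 1, with the same exact p and adjusted p. The ratio of Tap1 to Psmb9 overlapped, at 0.681 to 1.08 in the E17.5 libraries and 0.826 to 1.37 in the P14 libraries (exact permutation, adjusted p = 0.429).

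Tapbp (gene 21356, chr17:34138452-34148264, plus strand) measured 36.1, 33.2, 30.9 and 30.4 FPKM in the E17.5 libraries, replicates 1 to 4, and 113, 43.5, 55.7 and 47.7 FPKM in P14 replicates 1 to 4. All P14 libraries were above all E17.5 libraries, and P14 replicate 1 was 2.30 times the mean of the other three, with the P14 libraries in the order of the epithelial marker sum. With all libraries the log2 fold change of 0.87 ± 0.280 just missed the threshold (adjusted p = 0.0567). Without P14 replicate 1 it was 0.57 ± 0.101 and passed (adjusted p = 0.0023).

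**Figure D4:**
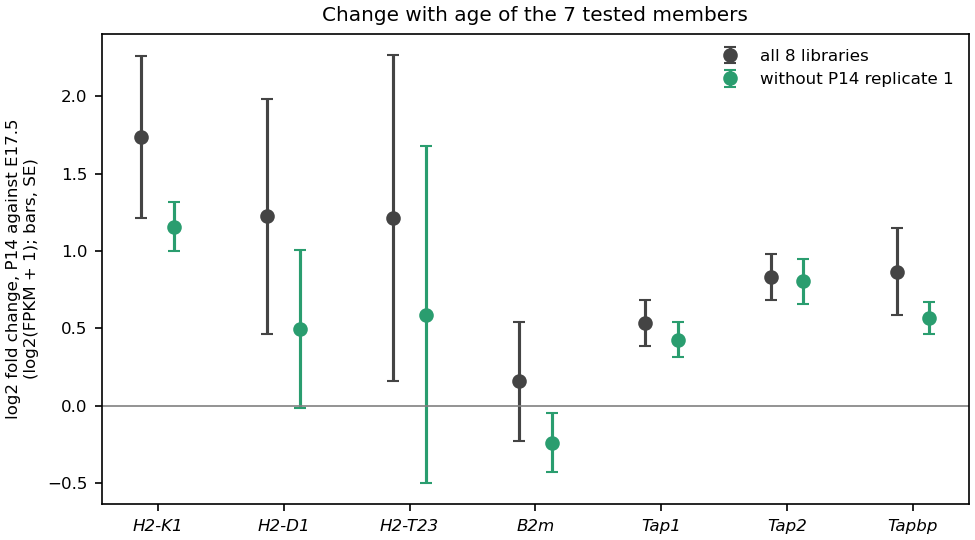
Log2 fold change at P14 against E17.5, from log2(FPKM + 1), of the 7 tested class I presentation genes, with all 8 libraries (grey) and without P14 replicate 1 (green); bars are standard errors. Without that library the standard errors of H2-K1 and Tapbp shrink, Tap2 hardly moves, and B2m goes from 0.16 to -0.24.

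Nlrc5 (gene 434341, chr8:95160963-95253900, plus strand) was the lowest of the 8 and under the filter of 1 FPKM in every library. It measured 0.125, 0.218, 0.227 and 0.114 FPKM in E17.5 replicates 1 to 4, from 18 to 34 reads, and 0.757, 0.457, 0.870 and 0.746 FPKM in P14 replicates 1 to 4, from 66 to 129 reads. Every P14 library was above every E17.5 library, and P14 replicate 1 was 1.09 times the mean of the other three. With no filter on low values, the log2 fold change on log2(FPKM + 1) was 0.54 ± 0.102 (adjusted p = 0.0198), and 0.52 ± 0.106 (adjusted p = 0.0133) without P14 replicate 1. This scale understates the change of so low a gene.

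**Figure D5:**
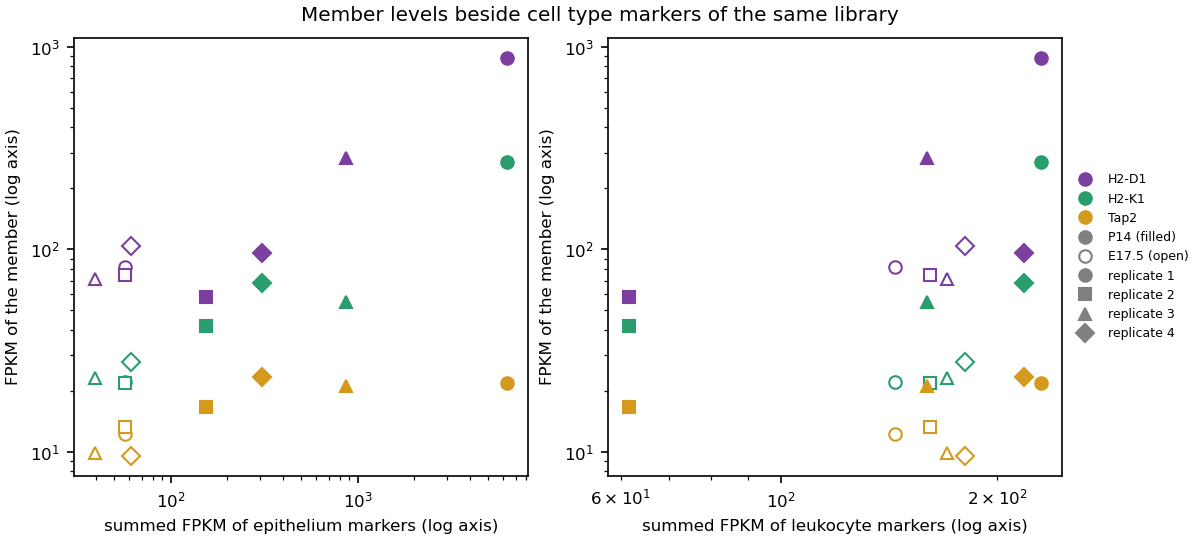
FPKM of H2-D1, H2-K1 and Tap2 (log axis) against the summed FPKM of epithelial (left) and leukocyte (right) markers (log axis) in the same library, with P14 filled, E17.5 open and the replicate number as the symbol. At P14 H2-D1 follows the order of the epithelial sum, Tap2 at 16.6 to 23.4 FPKM stays nearly level along it, and P14 replicate 2 has the lowest leukocyte sum and the lowest value of all 3 genes among the P14 libraries.

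Genes around the class I pathway were read from 10 lists, and their counts stand beside 9.72% of all tested genes that rose and 15.0% that fell with all libraries, and 22.6% and 26.9% without P14 replicate 1. Among 22 other class I heavy chains, 20 were in the table and 5 were tested, of which 1 rose and none fell. That was H2-Q4, a non-classical heavy chain, at 12.7 to 14.6 FPKM at E17.5 and 45.9, 17.9, 39.7 and 23.5 FPKM in P14 replicates 1 to 4 (log2 fold change 1.08 ± 0.278, adjusted p = 0.0264, and 0.88, adjusted p = 0.0168, without P14 replicate 1). With that library kept, its call was lost on leaving out any 1 of the E17.5 libraries or P14 replicate 3. H2-T22, H2-T10, H2-M3 and H2-T24 did not pass, with log2 fold changes from -0.15 to 0.67. H2-T3, which encodes the thymus leukemia antigen known from intestinal epithelium, and H2-Q2 were not tested and are named because of their values. H2-T3 stood at 42.6, 0.453, 3.85 and 2.42 FPKM and H2-Q2 at 33.9, 0.432, 7.01 and 3.27 FPKM in P14 replicates 1 to 4, in the order of the epithelial sum, and neither exceeded 0.234 FPKM at E17.5.

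Of 6 tested class I-like molecules, none rose and 3 fell, beside 15.0% of all tested genes that fell. Procr, the endothelial protein C receptor, fell from 12.2 to 17.4 FPKM at E17.5 to 2.70 to 4.94 FPKM at P14 (log2 fold change -1.75 ± 0.169, adjusted p = 0.0008), a value of -1.64 when P14 replicate 1 was left out. Blood endothelium markers summed to 898 to 981 FPKM at E17.5 and 332 to 774 FPKM at P14, and their part in the Procr change was not tested. Cd1d1, which presents lipids, had a log2 fold change of -0.63 and Hfe, a regulator of iron uptake, one of -0.60. On leaving out 1 library, the Cd1d1 call was lost in 4 of the 8 cases and those of Procr and Hfe in none. Fcgrt, the heavy chain of the neonatal Fc receptor, which pairs with B2m and takes up maternal antibody in the suckling gut, was the most abundant of the list. It measured 66.5, 61.7, 48.5 and 48.7 FPKM in the E17.5 libraries, replicates 1 to 4, and 713, 59.0, 258 and 137 FPKM in P14 replicates 1 to 4, again in the order of the epithelial sum (log2 fold change 1.80 ± 0.662, adjusted p = 0.0823). The value was 1.18 without P14 replicate 1 (adjusted p = 0.0764).

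Next came the genes that supply peptides. Of the 5 immunoproteasome and PA28 genes, 1 rose and none fell: Psme2, a subunit of the PA28 activator, with a log2 fold change of 0.42 ± 0.127 (adjusted p = 0.0442). Psmb8, Psmb9 and Psmb10, the catalytic subunits of the immunoproteasome, had log2 fold changes of 0.36, 0.34 and 0.33 with adjusted p of 0.1498, 0.3455 and 0.1696, and Psme1 one of 0.16. Of the 3 standard catalytic subunits that they replace, Psmb5 rose by 0.80 (adjusted p = 0.034) and Psmb6 by 0.46 (adjusted p = 0.0439), while Psmb7 stood at 0.24. The log2 fold changes of Psme2, Psmb5 and Psmb6 were 0.32, 0.76 and 0.54 without P14 replicate 1, and all 3 passed. With it, their calls were lost with FPKM rescaled to a fixed sum, and on leaving out 1 library in 7, 6 and 7 of the 8 cases. Of 8 genes of peptide loading and trimming in the endoplasmic reticulum, none passed with all libraries, and 2 rose and 5 fell without P14 replicate 1, when 22.6% of all tested genes rose and 26.9% fell. Calr, a chaperone of the loading complex, was the most abundant at 285 to 344 FPKM at E17.5 and 608, 202, 201 and 257 FPKM in P14 replicates 1 to 4, and without replicate 1 its log2 fold change was -0.53 (adjusted p = 0.0043).

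Among 16 regulators of class I promoters, all tested, none rose and 2 fell. These were Nfya, a subunit of the factor that binds CCAAT boxes, from 19.5 to 24.2 FPKM at E17.5 to 9.78 to 13.1 FPKM at P14 (log2 fold change -0.87 ± 0.125, adjusted p = 0.0031), and Creb1, a factor of cyclic AMP response elements (-0.61 ± 0.121, adjusted p = 0.010). Rela, a kappa B factor and the most abundant of the list, stood at 0.03 and Irf1 at 0.24. Without P14 replicate 1, 6 of the 16 fell and none rose, beside 26.9% and 22.6% of all tested genes.

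None of 6 interferon genes was tested, all being at or under 0.48 FPKM in every library. Of 9 tested interferon receptors and signalling genes none passed, and without P14 replicate 1 none rose and 2 fell, among them Jak1, the most abundant (-0.44, adjusted p = 0.0024). Of 29 tested interferon-stimulated genes, 1 rose and 6 fell with all libraries, and 4 rose and 8 fell without P14 replicate 1, when 22.6% of all tested genes rose and 26.9% fell, so the share that fell was near that of all genes. The one that rose with all libraries was Ifit1, at 0.628 to 0.9996 FPKM at E17.5 and 107, 3.10, 12.3 and 5.17 FPKM in P14 replicates 1 to 4 (2.94 ± 0.912, adjusted p = 0.0491). It was 1.95 without P14 replicate 1 (adjusted p = 0.0040), and the call was lost without any 1 of 6 other libraries. Ifit1 passed the filter of 1 FPKM only through its P14 libraries, all its E17.5 values being under 1 FPKM. Its test is therefore not independent of the filter. Gbp7, a guanylate-binding protein, fell by 1.05 and Iigp1, an immunity-related GTPase, fell by 0.94 on the log2 scale, and the most abundant of the list, Bst2, stood at -0.17, and at -0.36 without P14 replicate 1 (adjusted p = 0.0348).

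MHC class II, which presents peptides to CD4 T cells, was read from 9 tested genes, of which none rose and 2 fell, beside 15.0% of all tested genes that fell. They were H2-DMb1 (-1.01, adjusted p = 0.0112) and H2-DMa (-0.61, adjusted p = 0.0262), the chains of the peptide-exchange factor H2-DM, and without P14 replicate 1 their values were -1.07 and -0.67. On leaving out 1 library, the H2-DMa call was lost in 5 of the 8 cases and that of H2-DMb1 in none. Cd74, the invariant chain and the most abundant of the list, was at 273 to 342 FPKM at E17.5 and 330, 89.1, 314 and 310 FPKM in P14 replicates 1 to 4 (adjusted p = 0.5203). Summed macrophage and dendritic markers were 550 to 585 FPKM at E17.5 and 261 to 399 FPKM at P14, T and natural killer markers 26.9 to 34.5 and 14.8 to 109, and B and plasma cell markers 14.6 to 22.4 and 273 to 693. Their part in these values was not tested.

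By Pearson correlation over the 8 libraries, the protein-coding genes most like the mean standardised level of the 7 tested genes were Arid3b (0.996), C2cd2l (0.992), Tradd (0.991), Commd4 (0.989) and Tuba4a (0.989). Over the 7 libraries without P14 replicate 1 they were Arid3b (0.988), Cmah (0.984), C2cd2l (0.982), Gm2423 (0.982) and Mif4gd (0.979). The points share the 2 ages and their library, and the values are descriptions. Arid3b, first in both, measured 1.07 to 1.21 FPKM at E17.5 and 3.93, 1.38, 1.85 and 2.02 FPKM in P14 replicates 1 to 4.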

How the data were processed

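Bulk RNA-seq of small intestinal mesenchyme was taken as 1 deposited table of FPKM per gene and library. The authors' processing, per the submitters' processing notes, names CASAVA, fastp, HISAT2, featureCounts, DESeq2 1.20.0 and GRCm39 without their roles; the strand setting was not given in sources used here. FPKM times gene length gave whole reads for every library (tolerance 1e-06), and the library size behind the FPKM, as a ratio to assigned reads, was 0.78 in P14 replicate 1 and 1.02 to 1.06 elsewhere. Of the reads of a library, 0.183% to 0.246% lay in 302 unnamed loci.

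The ages were compared on log2(FPKM + 1) by limma (version 3.58.1 in R 4.3.3), with trend and robust moderation, over the 14044 genes at 1 FPKM or more in at least 4 of 8 libraries. Tests were two-sided, p-values were adjusted by Benjamini-Hochberg across these genes, and a gene was called under 0.05. The pseudocount of 1 understates changes of low genes. Ratios were tested by exact permutation over libraries. Code was tested on simulated data.

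All 8 genes are named with every library's value. From each list came at most 3 called genes, those of largest change, and its most abundant tested member, or every tested member for other heavy chains and the immunoproteasome; the rest of the listed genes enter the counts alone, and 1 value is not reported here. Genes and lists were chosen with earlier results of these data known. Alternatives were other pseudocounts, filters, scalings, voom on recovered reads, a replicate block and left-out libraries. Transcript sharing used GENCODE M21 and promoters used RefSeq, both on GRCm38.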

Additional observations from a re-analysis of the deposited data

Results flagged for a closer look

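For 45 genes, each age was looked at as a group of 4 libraries, 90 groups in all. In 8 groups, 1 library lay further from the rest than Dixon's 95% critical value allows. In 6 of the 8 groups, that library was P14 replicate 1. The genes were chosen with earlier results of these data known, and H2-T3 was named because of its values. The count of 8 therefore cannot be set against a chance rate and is a description only. H2-K1 was high there at 271 FPKM, as were H2-T3 at 42.6, Calr at 608, Ifnlr1 (the interferon lambda receptor) at 17.1 and Ifit1 at 107 FPKM, and Rfx5 was low at 1.76 FPKM. H2-T22 was low in E17.5 replicate 4 at 0.571 FPKM. Cd74 was low in P14 replicate 2 at 89.1 FPKM.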

How the results depend on the processing

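Tap2 stayed higher at P14 and called in 19 of 20 alternatives, H2-K1 in 11 and Tap1 in 9, all 3 with the same sign in all 20. Tapbp was called in 8, and H2-D1, H2-T23 and B2m in none. Leaving out 1 library gave 1 to 4 of the 7 genes called higher, 1735 to 6958 of all genes called (3473 with all libraries, 5498 at an unadjusted p under 0.05), and over the lists 0 to 10 called higher and 10 to 27 called lower. Leaving out E17.5 replicate 4 and P14 replicate 3 together, chosen after seeing the data, called 0 of the 7 genes, 828 of all genes, and 1 list gene higher and 5 lower. Leaving out P14 replicate 1 with them called 5813 genes, with 27 list genes lower. Without P14 replicate 1, voom called 7044 genes, with 11 list genes higher and 25 lower, and no filter called 6952 genes, 5 of the 8 class I genes, and 10 list genes higher and 25 lower. List genes called higher numbered 1 with no filter and 2 with rescaling to a fixed sum or quantile normalization. The share of higher calls among all calls was 39.3%, and 25.1% after rescaling. The cause of these moves was not tested.

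No pairing of libraries by replicate number was seen: deviations of same-numbered libraries correlated between -0.064 and 0.0095, and none of 8 libraries correlated best with its own number. This check cannot exclude that same-numbered libraries were prepared together. With the number as a replicate block, 1 of the 7 genes was called (Tap2, adjusted p = 0.0482), 1744 of all genes, and 1 list gene higher. Reads of 18 to 34 limit Nlrc5 at E17.5, and 4 libraries per age limit every exact test to a p of 0.0286.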
